A study of Ovis aries with 16 samples.

Results

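The genes described here encode the enzymes and transporters that burn fatty acids and make or use ketone bodies, measured by RNA sequencing in liver and skeletal muscle of fasted sheep. They were chosen by symbol from the table of normalized read counts, and 27 of the 29 listed genes were found among its 28524 rows. ACADM and ACOT2 were not analysed here. The 27 comprise 6 genes of carnitine-dependent entry into mitochondria, 1 acyl-CoA synthetase, 3 acyl-CoA dehydrogenases, 5 genes of hydration, oxidation and thiolysis, 3 auxiliary enzymes for unsaturated chains, 2 peroxisomal enzymes, 3 genes of electron transfer, 3 ketone body enzymes and the uncoupling protein gene UCP3.

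The animals were 8 female Suffolk sheep about 21 months old, all sampled after a 48 hour fast and in the late follicular phase, 24 hours after a second injection of prostaglandin F2α. The mothers of 4 of them had received 0.5 mg/kg bisphenol A (BPA, a plasticizer with oestrogen-like activity) in corn oil under the skin each day from day 30 to day 90 of gestation, and the mothers of the 4 controls had received corn oil. From every animal 1 library was made from the tip of the left liver lobe and 1 from the vastus lateralis, a thigh muscle, giving 16 libraries in 4 groups of 4. The control sheep were numbered 902, 908, 924 and 928 and the BPA sheep 910, 918, 977 and 984, and the values of a group are given in this order. The exposure was the mother's, before birth, and no library comes from an unfasted animal.

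Fatty acids are activated to acyl-CoA, passed through the mitochondrial membranes as carnitine esters, and shortened there by a cycle of oxidation, hydration, a further oxidation and thiolysis that releases acetyl-CoA. CPT1 makes the carnitine ester and is the controlled step, inhibited by malonyl-CoA. CPT1A is known as the liver form and CPT1B as the muscle form. In a fasted animal the liver turns acetyl-CoA into acetoacetate and 3-hydroxybutyrate and exports them, and tissues such as muscle take them up and return them to acetyl-CoA through OXCT1. In ruminants the rumen wall is a further source of ketone bodies.

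The libraries held 4.39 to 19.28 M recovered reads in liver and 15.15 to 28.54 M in muscle (M stands for 1e6). The tissue labels fit the marker genes, since the summed normalized count of 20 hepatocyte markers was 90737 to 1788796 in the livers and 6287 to 19583 in the muscles, and that of 14 muscle fibre markers was 500 to 1626 in the livers and 7065950 to 9999271 in the muscles. The livers were uneven. The control liver 902 had a hepatocyte sum of 90737, a fibroblast and stellate cell sum of 120866 and a cholangiocyte sum of 13603, compared with 356859.7 to 1788796, 3141 to 9223 and 398 to 991 in the other livers. The BPA livers 918, 977 and 984 had hepatocyte sums of 568130.2, 390842 and 356859.7 and ribosomal protein sums of 7081, 8154 and 5954, whereas the BPA liver 910 and the controls 908, 924 and 928 had hepatocyte sums of 1619686 to 1788796 and ribosomal protein sums of 52387 to 57559. In bulk tissue, fewer cells of a type and less RNA per cell cannot be told apart. The limma counts of members called between tissues and for BPA in liver are given with and without 902. So are the differences of several, but not all, members that turn on it.

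Liver and muscle each had their own higher members. Of the 27 members, 9 were higher in liver (SLC22A5, CPT1A, ACSL1, ACADL, ECI1, ECI2, ACAA1, EHHADH and ETFB) and 9 were lower in liver than in muscle (CPT1B, CRAT, HADHA, HADHB, HADH, ETFA, BDH1, OXCT1 and UCP3) by limma on log2(normalized count + 1), at an adjusted p below 0.05. Across all 15995 genes tested, 36.1% were higher and 35.3% lower in liver, so the share of members called in each direction was close to that of all genes. The median difference, liver minus muscle, was 0.38 on the log2 scale over the members and 0.06 over all genes. Without animal 902 the count was 16 higher and 9 lower, against 36.4% and 36.7% of all genes. The 7 members added were SLC25A20, CPT2, ACADVL, ACADS, ECHS1, ACAA2 and DECR1. When libraries were scaled to their total instead, the median of all genes moved from 0.06 to 0.98, and 16 members were higher in liver (59.7% of all genes) and 6 lower (17.3%). CRAT, HADHA and HADH then lost their call, at -0.10, -0.30 and -0.30. With all animals, edgeR called 12 members higher and 9 lower (6470 and 5152 of all 15995 genes), and DESeq2 12 and 8 (6165 and 5247). Both added ACADS, ECHS1 and ACAA2 to those higher in liver. Limma with quality weights called 16 higher and 10 lower (6815 and 6694 of all genes).

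**Figure D1:**
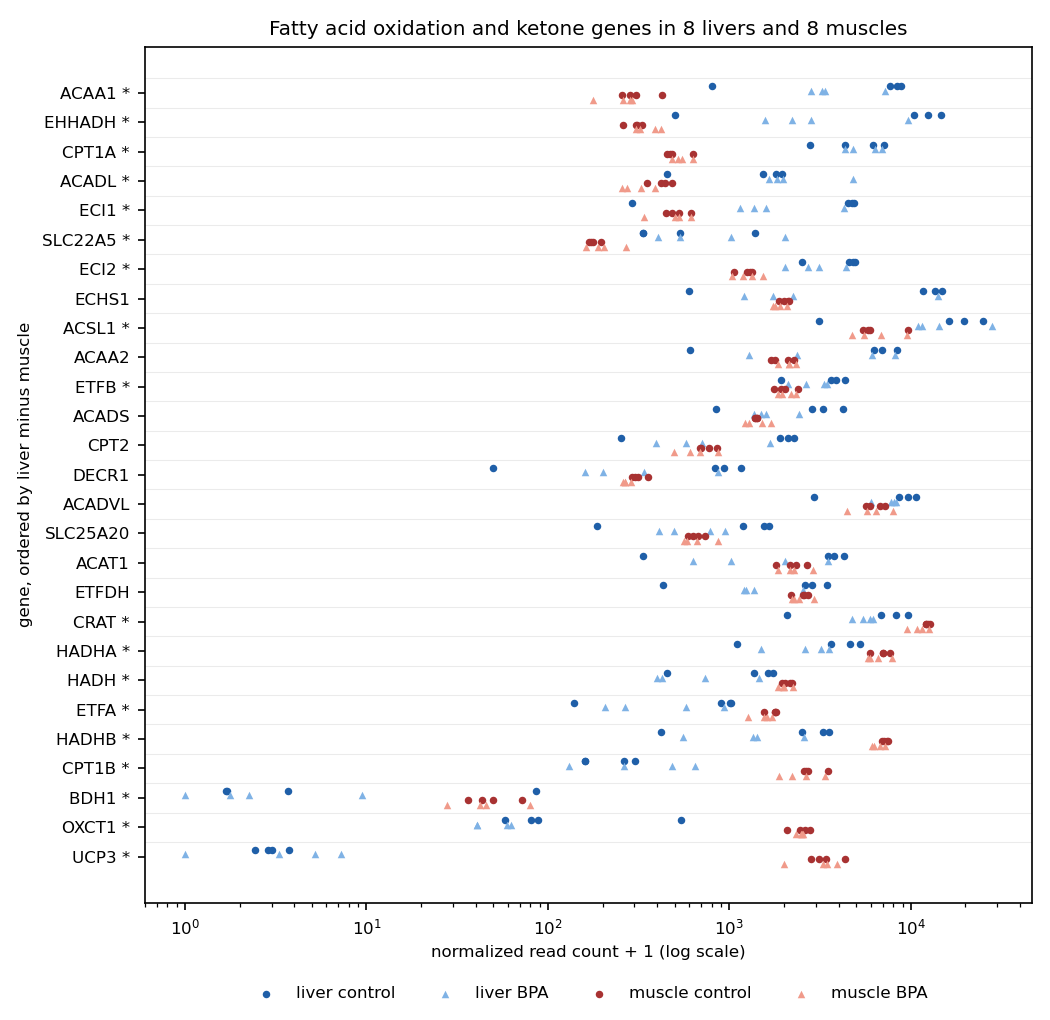
Normalized read counts plus 1 on a log axis for the 27 genes, 1 point per library, with control libraries as circles and BPA libraries as triangles, liver in blue and muscle in red. Genes are ordered by the liver minus muscle difference and an asterisk marks an adjusted p below 0.05. ACAA1 stands at the top and UCP3 at the bottom, and the lone dark blue point far to the left in many rows, such as DECR1, is the control liver 902.

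The CPT1 isoforms separated the tissues without overlap. CPT1A measured 2774, 6226, 7155 and 4336 in control livers and 4788, 6377, 6972 and 4338 in BPA livers. In muscle it measured 626, 451, 484 and 470 in controls and 627, 481, 521 and 550 in BPA animals. Every liver lay above every muscle, with means of 5371 ± 1545 and 526 ± 69.1 (n = 8 per tissue, SD) and a liver minus muscle difference of 3.30 on the log2 scale (SE 0.186, limma adjusted p = 1.39e-10). CPT1B showed the opposite order. It measured 158, 302, 262 and 160 in control livers, 130, 483, 646 and 263 in BPA livers, 3476, 2703, 2583 and 2627 in control muscles and 2226, 3346, 1865 and 2640 in BPA muscles. It averaged 301 ± 179 in the 8 livers and 2683 ± 529 in the 8 muscles (± SD), and the log2 difference was -3.33 (SE 0.276, limma adjusted p = 1.71e-08). CPT1B lies close to CHKB, the choline kinase beta gene, and the strand setting of the counting is not given in the sources used here.

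The ratio of the isoforms within a library hardly depends on the scaling of that library. Its log2 value, CPT1A over CPT1B, ran from 4.12 to 4.77 in control livers (median 4.56) and from 3.43 to 5.19 in BPA livers (median 3.88). In muscle it ran from -2.58 to -2.42 in controls (median -2.48) and from -2.80 to -1.83 in BPA animals (median -2.05). The control muscles were tightly grouped, with an SD of 0.07 compared with 0.46 in the BPA muscles, and the control range lay inside the BPA range in both tissues. The absolute level of the ratio also reflects the lengths of the transcripts, which were not used here, so only its difference between libraries is read.

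**Figure D2:**
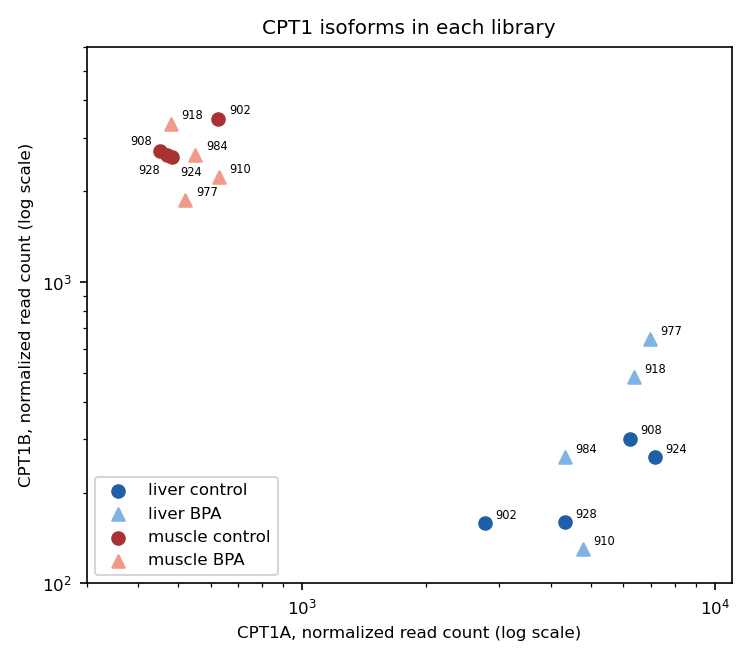
CPT1A (x axis) against CPT1B (y axis), both as normalized read counts on log axes, 1 point per library labelled with its sheep number. The 8 livers lie at the lower right (CPT1A 2774 to 7155) and the 8 muscles at the upper left (CPT1B 1865 to 3476).

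The other genes of carnitine-dependent entry did not share 1 direction. SLC22A5, the OCTN2 carnitine transporter of the cell membrane, was higher in every liver (332 to 2030.0) than in any muscle (161 to 270.1), with a log2 difference of 1.80 (SE 0.330, limma adjusted p = 0.000137). CRAT, the carnitine acetyltransferase, which handles acetyl and other short groups, was lower in liver by limma (log2 difference -1.04, SE 0.254, adjusted p = 0.00159). It measured 2086 to 9616 in liver and 9576 to 12741 in muscle, where the highest liver (908) just passed the lowest muscle (910). The translocase SLC25A20, which exchanges acylcarnitine for carnitine across the inner membrane, and CPT2, which returns the acyl group to CoA, were not called by limma with all animals (0.16, SE 0.365, and 0.43, SE 0.402). With quality weights or scaling to the total, and without animal 902, both were higher in liver, in the last case at 0.56 (adjusted p = 0.0150) and 0.84 (adjusted p = 0.00765). Their values in the liver 902 were 185 and 252, below all 7 other livers (409 to 1647 and 394 to 2268).

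ACSL1, a long-chain acyl-CoA synthetase, was higher in liver by limma with a log2 difference of 1.08 (SE 0.370, adjusted p = 0.0156). It measured 3117 to 27891 in liver (median 15324) and 4734 to 9648 in muscle (median 5855). The call was lost when animal 908, 924 or 928 was left out, with adjusted p between 0.0516 and 0.0591, and the liver 902 was the only liver within or below the muscle range.

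Among the acyl-CoA dehydrogenases, which start each turn of the cycle, ACADL alone passed the threshold between tissues by limma with all animals. ACADL, the long-chain enzyme, measured 454, 1816, 1956 and 1527 in control livers, 1966, 4828, 1657 and 1836 in BPA livers, 352, 479.5, 442 and 419 in control muscles and 389, 273, 256 and 326 in BPA muscles. All livers except 902 lay above all muscles, and the log2 difference was 2.24 (SE 0.289, limma adjusted p = 3.29e-06). ACADVL, the very-long-chain enzyme of the inner membrane, differed by 0.24 (SE 0.239, adjusted p = 0.370) and the short-chain enzyme ACADS by 0.51 (SE 0.261, adjusted p = 0.0903). Both were higher in liver by limma without animal 902, by 0.49 (adjusted p = 0.0138) and 0.76 (adjusted p = 0.000431). ACADS was also called with all animals by edgeR (0.67, adjusted p = 0.0226) and DESeq2 (0.63, adjusted p = 0.021), and both genes were with quality weights.

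The trifunctional protein genes and HADH were lower in liver. HADHA and HADHB encode the subunits of the mitochondrial trifunctional protein, which carries out the later steps for long chains. HADHB measured 420, 3548, 3267 and 2507 in control livers, 2580.0, 1418, 1357 and 552 in BPA livers, 7365, 7485, 6974 and 7148 in control muscles and 6789, 7208, 6097 and 6235 in BPA muscles. Every muscle exceeded every liver, and the log2 difference was -2.15 (SE 0.388, limma adjusted p = 0.000115). HADHA (-1.23, SE 0.281, adjusted p = 0.000946) and HADH, the dehydrogenase for shorter chains (-1.24, SE 0.289, adjusted p = 0.00112), also did not overlap between tissues. The pair HADHA and HADHB are neighbours in the genome. ECHS1, the short-chain enoyl-CoA hydratase, and the thiolase ACAA2 were not called by limma with all animals (1.10, SE 0.605, and 0.87, SE 0.486). By edgeR both were higher in liver, at 1.89 (adjusted p = 0.00651) and 1.34 (adjusted p = 0.0107), as they were by DESeq2. Without animal 902 their differences were 1.64 (adjusted p = 0.00188) and 1.35 (adjusted p = 0.00163), higher in liver.

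Of the 25 members with a mean of at least 10 in the livers other than 902 (BDH1 and UCP3 fall below it), ECHS1 had the highest coefficient of variation there, 75.3%. It measured 601, 14760.0, 11741 and 13584 in control livers and 14044, 2242, 1732 and 1209 in BPA livers. Its 8 muscles stayed between 1738 and 2140.4. The livers 902, 977 and 984 thus lay below the muscle range, 918 just above it, and 4 livers far above.

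Both isomerases of unsaturated chains and both peroxisomal members were higher in liver. ECI1 and ECI2, isomerases that move double bonds, were higher in liver by limma, at 2.04 (SE 0.491, adjusted p = 0.00146) and 1.47 (SE 0.181, adjusted p = 1.92e-06). ECI2 did not overlap between tissues (2032 to 4941 and 1035 to 1522). The dienoyl-CoA reductase gene DECR1 was not called by limma with all animals (0.38, SE 0.532), though it was higher in liver with quality weights (0.56, adjusted p = 0.0023) and without animal 902 (0.90, adjusted p = 0.0110), and its value in the liver 902 was 49.0 compared with 159 to 1162 in the other livers. Both peroxisomal members were higher in every liver than in any muscle. ACAA1, a peroxisomal thiolase, measured 805, 8845, 8425 and 7657 in control livers and 7168, 2823, 3348 and 3220.4 in BPA livers, against 257 to 422 in control muscles and 176 to 290 in BPA muscles. Its log2 difference was 3.92 (SE 0.412, limma adjusted p = 3.09e-07), a 15.2-fold difference on this scale. EHHADH, the peroxisomal bifunctional enzyme, measured 501, 14648, 12394 and 10383 in control livers and 9630.0, 2804, 2216 and 1563 in BPA livers, against 258 to 329 in control muscles and 305 to 417 in BPA muscles. Its log2 difference was 3.67 (SE 0.573, adjusted p = 2.72e-05).

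The electron transfer genes split. ETFA and ETFB encode the subunits of the flavoprotein that accepts electrons from the acyl-CoA dehydrogenases, and ETFDH encodes the oxidoreductase that passes them to ubiquinone. ETFA was lower in every liver (138 to 1022) than in any muscle (1262 to 1809.5), with a log2 difference of -1.70 (SE 0.390, limma adjusted p = 0.000992). ETFB was higher in liver by 0.58 (SE 0.175, adjusted p = 0.00752), with 1914 to 4361 in liver and 1753 to 2403 in muscle. ETFDH differed by -0.57 (SE 0.341, adjusted p = 0.143). By limma with quality weights it was lower in liver (-0.39, adjusted p = 0.00353), while with scaling to the total its sign turned without a call. The subunit genes ETFA and ETFB therefore differed between tissues in opposite directions.

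In all, 5 members lay above and 7 below without overlap between the 8 livers and the 8 muscles, where 20.4% and 21.2% of all genes did. Without animal 902 these counts were 8 and 8, with 24.0% and 25.6% of all genes. The 3 members then added above were ACSL1, ACADL and ECI1, and the member added below was BDH1.

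The ketone body genes set muscle apart at the step of use. OXCT1, the CoA transferase that lets a tissue use acetoacetate, measured 543, 79.8, 56.9 and 87.2 in control livers, 58.9, 39.6, 39.9 and 61.3 in BPA livers, 2067, 2460.0, 2609.7 and 2794 in control muscles and 2480.3, 2561, 2521 and 2329 in BPA muscles. Every muscle exceeded every liver, and the log2 difference was -4.98 (SE 0.341, limma adjusted p = 1.57e-09). The liver 902 lay far above the next highest liver (87.2). It was also the liver with the low hepatocyte and the high fibroblast and cholangiocyte sums, whose part in this value was not tested. Without animal 902 the mean was 60.5 ± 18.1 in 7 livers and 2536 ± 144 in 7 muscles (± SD).

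BDH1, the mitochondrial dehydrogenase that interconverts acetoacetate and 3-hydroxybutyrate, was at a low level in both tissues and near 0 in most livers. The livers held 45, 1, 1 and 4 reads in controls and 1, 0, 1 and 10 reads in BPA animals. The normalized counts were 84.8, 0.688, 0.711 and 2.68 in control livers and 0.764, 0, 1.25 and 8.40 in BPA livers, where the 0 of liver 918 allows up to 6.25 (3 reads, counting error only). In muscle BDH1 measured 48.7, 35.4, 42.2 and 71.1 in controls and 44.6, 78.3, 26.7 and 41.4 in BPA animals. It was lower in liver by limma (-3.67, SE 0.703, adjusted p = 0.000206), a size that depends on the pseudocount, and without the liver 902 no liver reached the lowest muscle. A long noncoding RNA gene overlaps BDH1 in the annotation. BDH2, a cytosolic short-chain dehydrogenase, was higher in every liver than in any muscle, at 313 to 1018 and 117 to 226 (log2 difference 1.40, SE 0.196, adjusted p = 8.56e-06).

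ACAT1, the mitochondrial acetoacetyl-CoA thiolase that acts in both directions of ketone metabolism, was not called between tissues (-0.36, SE 0.467, limma adjusted p = 0.495). It measured 332 to 4294 in liver (median 2746) and 1812 to 2902 in muscle (median 2213). Its difference turned positive without animal 902 (0.12), by edgeR (0.06) and by DESeq2 (0.02). The sign also turned with scaling to the total, and none of these settings called it. SLC16A1, the monocarboxylate transporter MCT1 that carries ketone bodies and lactate, was likewise not called (-0.17, SE 0.296, adjusted p = 0.622), with 311 to 1478 in liver and 602 to 1110 in muscle. SLC16A6, described as a ketone body exporter of liver, differed by 0.38 (SE 0.378, adjusted p = 0.383).

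**Figure D3:**
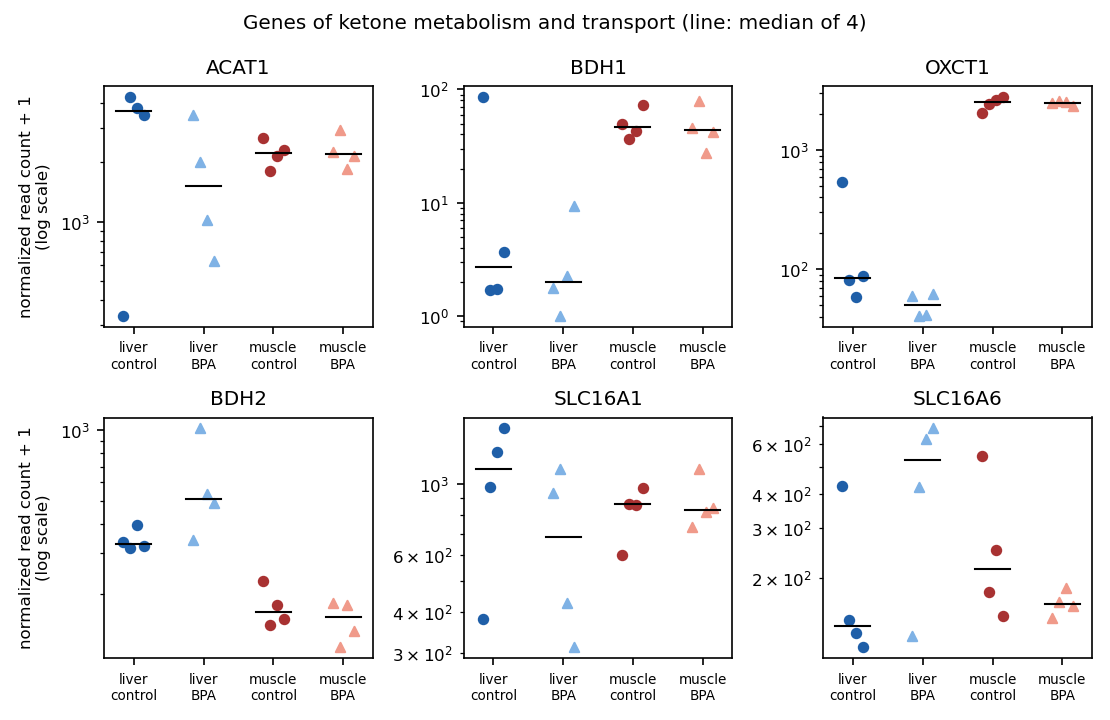
Normalized read counts plus 1 on log axes for 6 genes of ketone metabolism and transport, 1 point per library and a line at the median of each group of 4. OXCT1 lies between 39.6 and 543 in liver and between 2067 and 2794 in muscle, while ACAT1 and SLC16A1 overlap between the tissues.

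Within a library, the log2 ratio of BDH1 over OXCT1 was -5.58 to -2.66 in control livers (median -4.83) and -5.34 to -2.73 in BPA livers (median -4.64). In muscle it was -6.08 to -5.28 in controls (median -5.65) and -6.51 to -5.01 in BPA animals (median -5.77). The tissues overlapped in that ratio at a pseudocount of 1, but at a pseudocount of 8 the livers (-3.34 to -2.08) lay above the muscles (-6.19 to -4.90). The few BDH1 reads in liver leave the ratio there to the pseudocount.

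UCP3, a mitochondrial carrier of muscle whose expression is known to rise with fasting, was almost entirely a muscle signal. It measured 3403, 2831, 3122 and 4324 in control muscles and 1998, 3903, 3463 and 3276 in BPA muscles. The livers held 0 to 6.24, with 918 at 0. The log2 difference was -10.0 (SE 0.317, limma adjusted p = 1.06e-13), which depends on the pseudocount at such low liver values.

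Of a wider list of 86 pathway genes, 81 had a row and 77 were tested between tissues, and 40 were higher and 21 lower in liver by limma, with a median difference of 1.16, where 36.1% of all genes were higher and 35.3% lower. Without animal 902 it was 45 higher and 21 lower of 76. The shares over all genes are the background for each group that follows. In the peroxisomal group 11 of 14 were higher and 1 lower. In the uptake, binding and activation group 9 of 16 were higher and 6 lower. Its fatty acid binding proteins took opposite sides, with FABP1 at 5.77 (SE 0.554) and FABP3 at -7.89 (SE 0.261, adjusted p = 1.86e-13). The medium-chain synthetase gene ACSM1 (6.56, SE 0.283) and the long-chain synthetase gene ACSL5 (5.04, SE 0.222) were among the list's 3 smallest p in liver. The third of these was CREB3L3, a fasting-responsive transcription factor of liver, at 7.62 (SE 0.222, adjusted p = 4.10e-14).

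Genes that set the malonyl-CoA brake on CPT1 were 2 higher and 2 lower of 4, against 36.1% and 35.3% of all genes. ACACB, the acetyl-CoA carboxylase that makes malonyl-CoA at mitochondria, was lower in liver at -2.21 (SE 0.343, limma adjusted p = 2.51e-05), and MLYCD, which breaks malonyl-CoA down, at -1.03 (SE 0.329, adjusted p = 0.0102). The 2 genes higher in liver were outside the fixed panel of named genes and are not described here. Of the carnitine synthesis and transfer group 5 of 6 were higher in liver and 0 lower, and of the other mitochondrial enzymes 5 of 13 were higher and 2 lower. The ketogenesis and transport group had 4 of 8 higher and 2 lower.

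Among regulators, 4 of 16 were higher in liver and 8 lower, against 36.1% and 35.3% of all genes. PPARA, the nuclear receptor that drives fatty acid oxidation in fasting, was higher in liver at 1.52 (SE 0.237, limma adjusted p = 2.70e-05). Its target FGF21, a liver hormone of fasting, measured 129 to 650.4 in control livers, 29 to 1223 in BPA livers and 0 to 2.43 in all muscles. PDK4, the kinase that restrains pyruvate oxidation, was lower in liver at -2.59 (SE 0.323, adjusted p = 2.30e-06), with 1033 to 6597 in liver and 10844 to 25752 in muscle. LPIN1, a phosphatase and coactivator, was at -4.52 (SE 0.215) and the coactivator gene PPARGC1B at -3.30 (SE 0.201), both lower in liver. PPARGC1A (0.36, SE 0.254) and ANGPTL4, a lipase inhibitor induced in fasting (0.30, SE 0.234), were not called by limma with all animals. ANGPTL4 was higher in liver without animal 902 (0.50, adjusted p = 0.0382).

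Members varied far more among livers than among muscles. Over the 8 libraries of a tissue the median coefficient of variation of the members was 60.1% in liver (27.2% for ETFB to 237% for BDH1) and 13.1% in muscle (6.78% for HADH to 36.1% for BDH1). Without animal 902 the liver median was 48.9%. The same spread was not computed over all genes, so whether it is particular to the members cannot be said. The liver 902 was the lowest of the 8 for 21 of 26 members and the highest for BDH1 and OXCT1. How often a library was lowest or highest over all genes was not computed. The members' median deviation from the mean of the livers was -1.86 log2 units in 902. The median over all genes was -0.02 there and -0.04 to -0.00 in the other livers. The other member medians were 1.05, 0.75 and 0.58 in the controls 908, 924 and 928, 0.36 in the BPA liver 910, and -0.15, -0.36 and -0.57 in the BPA livers 918, 977 and 984. The 4 BPA livers had the same order in their hepatocyte sums, whereas the controls 908, 924 and 928 had the opposite order, and 910 had the highest sum of all livers. In muscle the library medians of the members lay between -0.16 (977) and 0.24 (918), and those of all genes between -0.01 and 0.01. The muscle 918 was highest for 13 of 27 members and had the highest slow fibre sum (209812). The muscle 977 was lowest for 11 and had the lowest sum (119871). The other muscles did not all follow the slow fibre sum. The muscle 902 had the next lowest sum (131049) but a median of 0.10, with 20 of 27 members above the mean. The muscle 910 was lowest for 9 members at a sum of 170835, and 928, with the next highest sum (193562), had a median of 0.06. The part of fibre type or cell make-up in these differences was not tested.

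**Figure D4:**
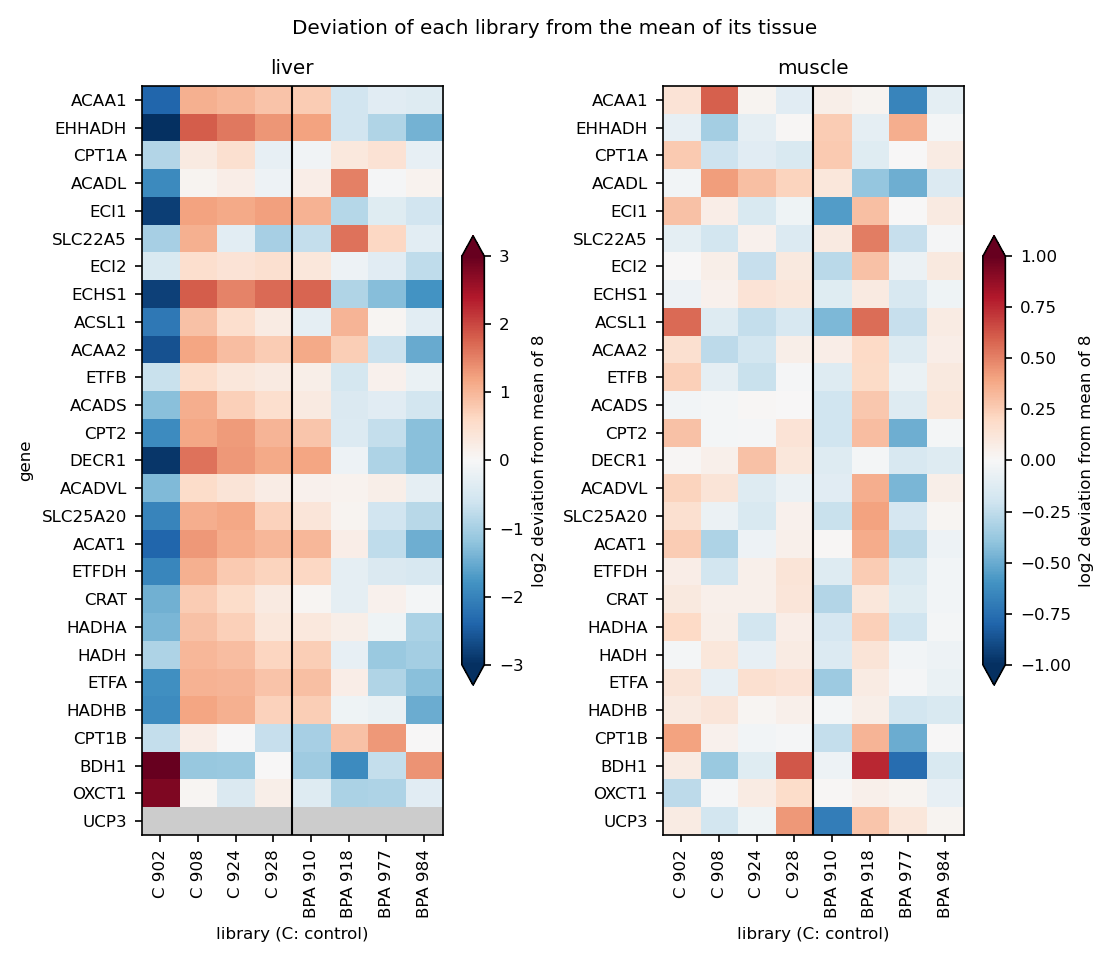
Deviation of each library from the mean of the 8 libraries of its tissue, on log2(normalized count + 1), for the 27 genes (rows) and libraries (columns, C for control), with the colour scale ending at 3 in liver and at 1 in muscle and grey for UCP3, not tested in liver. The liver 902 is blue for nearly every gene except BDH1 and OXCT1, and the BPA liver 910 is coloured like the controls 908, 924 and 928 for most.

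Prenatal BPA gave no member past the threshold in liver. Of 26 members tested, 0 were called by limma, edgeR or DESeq2, and 0 had an unadjusted limma p below 0.05 (1 by edgeR and 0 by DESeq2). Of all 15689 genes tested, limma called 0, which is 0%, and 18.1% had an unadjusted p below 0.05. In the limma fit 20 of the 26 members had a lower mean in BPA and 6 a higher one, with a median difference, BPA minus control, of -0.42 log2 units over members and -0.01 over all genes. No member had its 4 BPA livers all above or all below the 4 controls, where 3.63% and 3.98% of all genes did.

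The control liver 902 set much of this. Without it, 25 members were tested and 0 were called, but 13 had an unadjusted limma p below 0.05, against 30.4% of all genes, and the median difference was -1.03. For 13 members all 4 BPA livers then lay below the 3 remaining controls, and for 0 they lay above, where 13.3% and 10.1% of all genes did. These 13 were SLC25A20, CPT2, CRAT, ACADVL, ACADS, HADHA, ECI1, ECI2, ACAA1, EHHADH, ETFB, ETFDH and ACAT1. With all 8 livers weighted by their estimated quality, limma called 17 members, 16 lower in BPA against 31.5% of all genes and 1 higher (CPT1B). The hepatocyte and ribosomal protein sums and the depth moved with these values, since the BPA livers 918, 977 and 984 were below the controls 908, 924 and 928 in all of them. Macrophage and Kupffer cell sums (1757, 2192 and 3199 in those BPA livers, 8385 to 11215 in those controls) and fibroblast sums (3141 to 4552 and 7058 to 9224) moved the same way. Endothelial sums (9642, 14096 and 19901 against 14282 to 16943) and cholangiocyte sums (404, 398 and 587 against 512 to 991) overlapped. The part of cell make-up, ribosomal protein sums and depth in the difference was not tested.

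Single genes show how the livers fell. For EHHADH the BPA liver 910 (9630.0) lay just under the 3 high controls (10383 to 14648), the BPA livers 918, 977 and 984 lay at 2804, 2216 and 1563, and the control 902 lay lowest at 501. Its difference was -0.83 (SE 1.05, limma adjusted p = 0.670) with all livers and -1.99 (SE 0.567, adjusted p = 0.131) without 902. For ECHS1 the BPA liver 910 (14044) lay among the 3 high controls (11741 to 14760.0), and 918, 977, 984 and 902 again followed in that order. It differed by -1.11 (SE 1.11, adjusted p = 0.585) with all livers and by -2.22 (SE 0.736, adjusted p = 0.131) without 902.

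At the entry step, CPT1A differed by 0.20 (SE 0.407, limma adjusted p = 0.804) with all livers and by -0.07 without 902, and CPT1B by 0.60 (SE 0.494, adjusted p = 0.496) and 0.46. The downstream carnitine genes had larger differences in the fit without 902, with SLC25A20 at -1.22 (SE 0.344) and CPT2 at -1.53 (SE 0.450), both with an adjusted p of 0.131. CPT1B was highest in the BPA livers 977 (646) and 918 (483) and lowest in the BPA liver 910 (130). ACADL was the member with the largest positive difference with all livers, 0.89 (SE 0.537, adjusted p = 0.371), which was 0.40 without 902, and the liver 918 (4828) stood apart from the other 3 BPA livers (1657 to 1966).

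Of the ketone genes in liver, OXCT1 differed by -1.29 (SE 0.638, limma adjusted p = 0.30) with all livers and by -0.58 (SE 0.322, adjusted p = 0.24) without 902, whose OXCT1 value was the highest. BDH1 differed by -1.15 (SE 1.40, adjusted p = 0.658) on counts of at most 10 reads outside 902. Its BPA mean was 0.117 of the control mean with 902 and 1.91 times the control mean without it, so that 1 library turned the direction. ACAT1 differed by -0.51 (SE 0.849, adjusted p = 0.753) with all livers. Without 902 its 4 BPA livers (629 to 3478) lay below the 3 controls (3494 to 4294), with the BPA liver 910 closest to them, at -1.39 (SE 0.530, adjusted p = 0.135).

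In muscle no member passed the threshold either. Of 27 members tested, 0 were called by limma, edgeR or DESeq2, where limma called 0.129% of 14706 genes. An unadjusted limma p below 0.05 was found for 2 members, ACADL and DECR1, against 7.77% of all genes (2 members by edgeR and 1 by DESeq2). The median difference was -0.08 over members and -0.00 over all genes. DECR1 was the only member whose groups did not overlap, with 265, 285, 258 and 264 in BPA muscles below 291, 299, 353 and 312 in controls (-0.22, SE 0.0957, adjusted p = 0.606), where 2.48% of all genes lay below and 2.05% above. ACADL differed by -0.45 (SE 0.144, adjusted p = 0.426), and only the BPA muscle 910 (389) reached the control range (352 to 479.5).

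The muscle differences of the other members were small beside those of liver. CPT1B differed by -0.20 (SE 0.164, limma adjusted p = 0.805) and CPT1A by 0.11 (SE 0.122, adjusted p = 0.865). The widest after ACADL were ACAA1 at -0.33 (SE 0.186, adjusted p = 0.720) and EHHADH at 0.24 (SE 0.124, adjusted p = 0.685). For ketone use, OXCT1 was 2483 ± 309 in 4 control muscles and 2473 ± 101 in 4 BPA muscles (± SD), a difference of 0.00 (SE 0.0974). UCP3 differed by -0.14 (SE 0.194, adjusted p = 0.900), and its lowest muscle was the BPA animal 910 (1998).

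**Figure D5:**
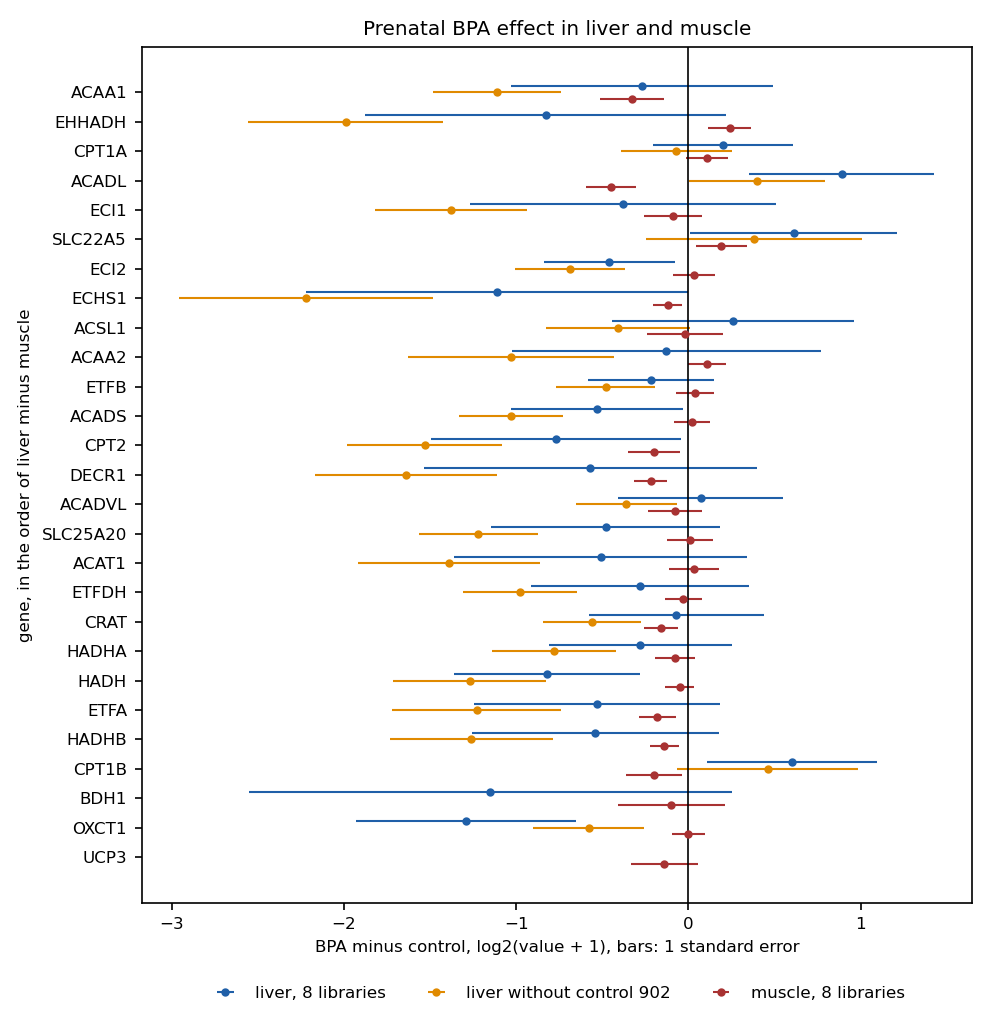
BPA minus control difference on log2(normalized count + 1) for each gene, with bars of 1 standard error, in 8 livers (blue), in the 7 livers without the control 902 (orange) and in 8 muscles (red). The liver points of most genes move to the left without 902, such as EHHADH from -0.83 to -1.99, and the muscle points lie between -0.45 and 0.24.

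The BPA effects in liver and muscle were also compared directly. Of 26 members tested in both tissues, 0 differed by limma, edgeR or DESeq2, and limma called 0% of 13677 genes. At an unadjusted p below 0.05 there was 1 member, ACADL, against 19.5% of all genes (2 members by edgeR and 1 by DESeq2). For ACADL the liver effect minus the muscle effect was 1.34 (SE 0.578, adjusted p = 0.237), from 0.89 in liver and -0.45 in muscle. The median over members was -0.32 and over all genes -0.05, and without animal 902 the member median was -0.96. In that fit 25 members were tested and 0 were called, where limma called 4 of 13506 genes. An unadjusted limma p below 0.05 was then found for 14 members, against 3943 of all genes.

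The wider pathway list held no gene called for BPA by limma with all libraries weighted equally and each tissue fitted alone. In liver 0 of 76 passed by limma, edgeR or DESeq2, and 1 (ACAD9) had an unadjusted limma p below 0.05, against 18.1% of all genes. With quality weights limma called 51 of the 76, 38 of them lower in BPA. Over all genes those weights called 9588 of 15689, 4941 of them lower. Limma called 4 without the BPA liver 910 (2595 of 15741 over all genes) and 1 when all 16 libraries were fitted together (2299 of 15689). In muscle 0 of 75 passed by limma and edgeR, and 9 had an unadjusted limma p below 0.05, against 7.77% of all genes. DESeq2 called 2 of the 75 in muscle (131 of 14706 over all genes), and quality weights also gave 2 (377 of 14706). Among the fasting genes in liver, the limma difference was 0.94 (SE 0.463, adjusted p = 0.299) for PPARGC1A and 0.66 without the control 902. ACACB differed by 1.07 (SE 0.619, adjusted p = 0.357) and by 1.35 without 902. FABP1 was at -1.47 (SE 1.0, adjusted p = 0.419) and at -2.53 (adjusted p = 0.131) without 902. SLC16A6 was at 1.18 (SE 0.608, adjusted p = 0.315) and at 1.62 (adjusted p = 0.131) without 902. The BPA difference of PPARA went from 0.52 to 0.07 and that of PDK4 from -0.18 to -0.67 when 902 was left out, with no call in either fit. FGF21 ranged over 29 to 1223 within the BPA livers alone.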

How the data were processed

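RNA was depleted of ribosomal RNA and converted to libraries by a low-input kit, per the labels' protocols, from liver and muscle of the same 8 sheep. The submitters' processing notes name Trimmomatic, FastQC and DESeq2 version 1.24.0. Sources used here do not give the aligner, read counter, strand setting or genome build. Values deposited by the authors are a normalized signal: each is a whole read count divided by a size factor of its library. Dividing by the step of each library recovered whole reads (within 0.1 read, at least 99.99% of values were whole), giving 4.39 to 28.54 M reads per library (M stands for 1e6). Of the 28524 rows, 3425 were at 0 in every library. Gene names and neighbours came from the RefSeq gene table of ARS-UI_Ramb_v3.0, through which 406 names were updated. Levels were not compared between genes, since no transcript lengths were used.

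Each tissue was fitted alone with limma 3.58.1 (R 4.3.3, eBayes with trend) on log2(normalized count + 1). Genes entered the test with an average of 10 or more, and p was adjusted by Benjamini-Hochberg over all of them. This scale understates the fold changes of low genes. A 4-group fit tested liver against muscle and the difference between BPA effects. Recovered reads went through edgeR 4.0.16 (quasi-likelihood test) and DESeq2 1.42.0 as alternatives. The steps were tested on simulated data. The text names all members with a row, a fixed panel of other pathway genes (some of them not reported here), and up to 3 pathway genes per comparison and direction with the smallest p past the threshold. BDH2 was named beside BDH1, and ACAD9 as a single count, after their values were seen. The members, lists and tests were chosen with earlier results of these data known.

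The sheep number pairs liver and muscle of 1 animal, per the labels. Deviations from the group means correlated between an animal's tissues by -0.10 to 0.12 across 13677 genes. Within a tissue no block applies. The samples of a group are separate animals.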

Additional observations from a re-analysis of the deposited data

Results flagged for a closer look

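Of 108 combinations of 27 genes and 4 groups of 4 animals, 19 held a library far from the other 3, by Dixon's test at its 95% critical value on the log2 scale. Chance alone flags about 1 in 20 independent combinations. Genes of 1 library are not independent, and the share over all genes was not computed. In 15 of the 19 the library was the control liver 902, in each case the lowest. Its values, with those of the other control livers in brackets, were 184.7 for SLC25A20 (1185 to 1647), 252.5 for CPT2 (1900.5 to 2268), 2930.2 for ACADVL (8613 to 10731), 454.1 for ACADL (1527 to 1956), 420.2 for HADHB (2507 to 3548) and 601.1 for ECHS1 (11741 to 14760.0). They were 603.0 for ACAA2 (6268 to 8417), 48.99 for DECR1 (835 to 1162), 290.2 for ECI1 (4532 to 4876), 2521.3 for ECI2 (4555 to 4941) and 804.6 for ACAA1 (7657 to 8845). They were 501.2 for EHHADH (10383 to 14648), 137.6 for ETFA (899 to 1022), 429.6 for ETFDH (2615 to 3469) and 331.6 for ACAT1 (3494 to 4294). The same library had the low hepatocyte sum and the high fibroblast and cholangiocyte sums given above, and their part in these values was not tested.

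The muscle of the same animal was the highest control for CPT1B at 3476.1 (2583 to 2703 in the others) and for ACSL1 at 9647.8 (5467 to 5919). The control muscle 908 was the lowest for ETFA at 1541.4 (1778 to 1809.5 in the others). In the BPA livers, 918 was the highest for ACADL at 4828.2 (1657 to 1966 in the others).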

How the results depend on the processing

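Other pseudocounts, filters, TMM scaling and a robust fit changed no call on a member they tested. With the animal as a replicate block, 9 members were higher and 9 lower in liver (18 in all) and 0 differed in their BPA effects, so the block changed no call. Weighting libraries by quality gave 17 members called for BPA in liver, 16 higher in liver than in muscle and 18 with differing BPA effects, among which ACAA1 turned from 0.07 to -1.0. Between liver and muscle those weights raised the genes called higher in liver from 5780 to 6815. For BPA they raised the calls over all genes from 0 to 9588 in liver and from 19 to 377 in muscle. For the difference of BPA effects between tissues the calls rose from 0 to 8245. DESeq2 called 195 genes in liver, 131 in muscle and 148 for that difference, with no member among them. Scaling to the library total gave 16 members higher in liver. Leaving out 1 animal at a time gave 8 to 16 higher in liver, the 16 without 902. Leaving out the BPA liver 910 gave 2595 genes called in liver but 0 members, and fitting all 16 libraries together gave 2299 and 0. Leaving out 1 liver moved the members' median BPA difference between -1.03 (without 902) and -0.10 (without 908). Members below the threshold changed sign in places. For BPA it was up to 4 of 26 in liver (at most 0.63 log2 units) and up to 6 of 27 in muscle. In the difference of BPA effects it was up to 5 of 26. Between liver and muscle it was up to 2 of 27 (ETFDH and ACAT1, scaled to the total). At a pseudocount of 8 the median BDH1 over OXCT1 ratio was -2.47 in BPA livers and -3.03 in control livers, set by the low BDH1 reads. The cause of the other changes was not tested. Low read numbers limit BDH1 and UCP3 in liver most, with 10 reads or fewer of either in every liver but 902. That liver, the shallowest at 4.39 M reads, held 45 BDH1 reads and 1 UCP3 read.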
